A study of Mus musculus with 7 samples.

Results

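The endoplasmic reticulum (ER) folding genes described here are 41 genes for ER lumen chaperones, disulfide isomerases, sensors of the unfolded protein response (UPR) and ER-associated degradation (ERAD). They were listed by gene symbol with earlier results of these data known, and all 41 were among the 24346 genes of the table. They were read in 5 branches, namely 10 chaperones of the HSP70 and HSP90 families with their co-chaperones, 11 disulfide isomerases and oxidases, 5 lectin chaperones and prolyl isomerases, 5 sensors and transcription factors, and 10 ERAD genes. Bulk RNA-seq was performed on the cerebral cortex of male mice at postnatal day 100, with 1 library per animal. The 4 CrT-/y animals (replicates 0 to 3) were hemizygous for a deletion of exons 5 to 7 of *Slc6a8*, the X-linked gene of the creatine (Cr) transporter, and the 3 CrT+/y animals (replicates 1 to 3) were wild-type littermates. Both genotypes were on a C57Bl/6 J background, and all mice were killed in the light phase of the day. The deletion was present in every cell of the body, and dissected cortex holds all cortical cell types, so fewer cells of a type and less RNA per cell cannot be told apart in these values. Littermates came from several litters, and the labels do not tie an animal to its litter.

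The ER is where secreted and membrane proteins are folded, and BiP (*Hspa5*), GRP94 (*Hsp90b1*), the disulfide isomerases and the calnexin and calreticulin cycle carry out that work. When unfolded proteins build up, BiP leaves the sensors IRE1 (*Ern1*), PERK (*Eif2ak3*) and ATF6, and the transcription factors XBP1 and cleaved ATF6 raise chaperone and ERAD genes through ER stress response elements in their promoters. Chains that fail to fold are marked by EDEM mannosidases, handed to the HRD1 (*Syvn1*) and SEL1L complex in the membrane and sent to the proteasome. In neurons the same machinery folds receptors and channels on their way to the synapse.

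The 41 listed ER folding genes were lower in CrT-/y cortex as a group, and the medians of the chaperone branches were lower than those of the sensor and ERAD branches. This was not shared by ER folding genes at large, as 38 other ER chaperones and foldases had a median log2 fold change of -0.02. Values are FPKM, sequenced fragments scaled to the exon length of the gene and to the mapped reads of the library, so that levels can be compared between genes per length. The summed FPKM of the 41 genes was 1220 to 1262 in the 4 CrT-/y animals and 1498 to 1559 in the 3 CrT+/y animals, which was 0.318% to 0.323% and 0.385% to 0.389% of the summed FPKM of all genes. Each gene was tested with limma on log2(FPKM + 0.1), genotype being the only term, and a gene was called at an adjusted p under 0.1 over the 12988 genes that averaged 1 FPKM or more. Of the members, 40 passed this filter, 20 of them fell (50%), and 0 were called higher with limma. Without adjustment, 24 of the 40 had a limma p under 0.05, against 3252 of the 12988 genes tested. Of the 24, 2 lay above 0 (*Ppib* and *Edem2*). Over all genes tested, 7.25% were called lower and 2.9% higher. The log2 fold change was below 0 in 32 of the 40 members, against 58.2% of all genes. The median over the members was -0.21 (range -0.66 to 0.22), and over all genes tested it was -0.03. The 4 CrT-/y animals lay below the 3 CrT+/y animals without overlap in 23 members (all genes 15%) and above them in 2 (all genes 6.57%), *Ppib* and *Edem2*. *Derl3*, the member under the filter, was at 0.687, 0.473, 0.527 and 0.545 FPKM in CrT-/y and 1.11, 0.550 and 1.24 FPKM in CrT+/y replicates, and it was not tested. A log2 fold change understates the change of genes near 1 FPKM because of the added 0.1.

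**Figure D1:**
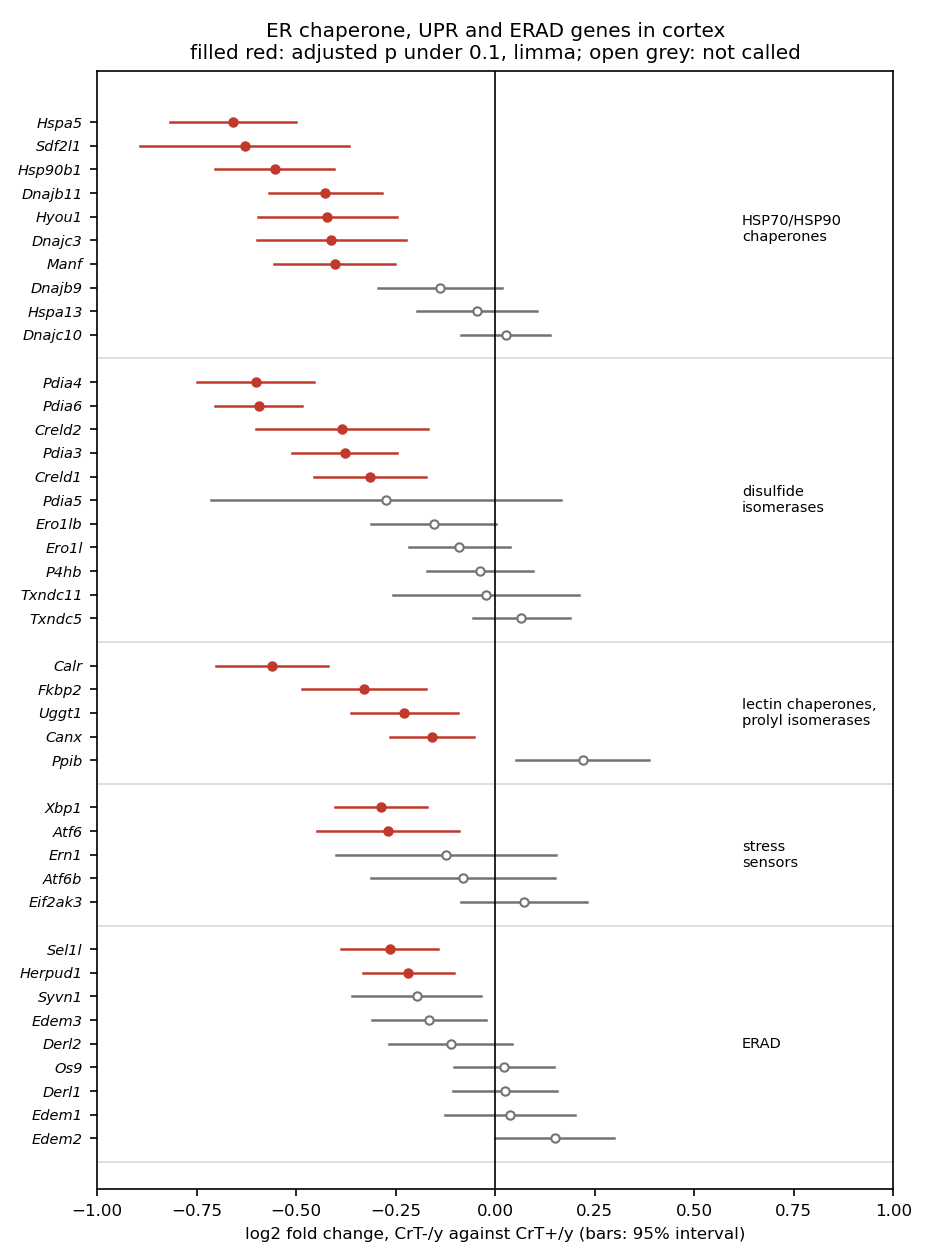
Log2 fold change of the 40 members tested, CrT-/y against CrT+/y (x axis), with 95% intervals from limma as bars, grouped by branch and ordered by size within it. The 20 members called lower are filled red and lie between -0.66 and -0.16, and the 20 not called are open grey, among them *Ppib* at 0.22.

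The targeted gene *Slc6a8* was at 12.4, 14.9, 14.7 and 15.7 FPKM in CrT-/y and 32.3, 29.6 and 28.0 FPKM in CrT+/y animals, which goes with the labels. Log2 profiles of pairs of animals correlated with Pearson's r of 0.986 to 0.990 within CrT-/y, 0.982 to 0.984 within CrT+/y and 0.979 to 0.987 across genotypes. The table holds FPKM and no read counts per gene, so no counting interval was given. The study lists total reads per library, with the knockouts numbered otherwise than in the labels, and these totals were not used here. The excitatory neuron marker *Slc17a7* was present in every animal (542.3 to 670.0 FPKM), and the 5 plasma cell and B-cell markers in the table, which would mark cells specialised in secretion, summed to at most 1.18 FPKM. Of the other cell types, 4 of 9 endothelial and pericyte markers (44.4%, all genes 7.25%) were called lower (*Pecam1*, *Flt1*, *Ly6c1*, *Rgs5*). Of these 9 markers, 7 lay below 0 and 2 above (*Slco1a4*, without overlap, and *Pdgfrb*), with a median log2 fold change of -0.165. They summed to 144 to 169 FPKM in CrT-/y and 172 to 199 FPKM in CrT+/y animals. Of 4 oligodendrocyte precursor markers, 1 was called lower (*Olig2*), with a summed FPKM of 28.6 to 32.6 in CrT-/y and 34.8 to 38.9 in CrT+/y animals. Choroid plexus and ependymal markers summed to 14.9 to 61.8 FPKM in CrT-/y and to 12.2 to 412 FPKM in CrT+/y animals, where replicate 2 held 379 FPKM of *Ttr*, the transthyretin of the choroid plexus. None of the marker lists of astrocytes, oligodendrocytes or microglia (8 genes each) held a called gene. Below 0 lay all 8 oligodendrocyte (median -0.19), 7 astrocyte (-0.13) and 6 microglial markers (-0.08). The oligodendrocyte markers summed to 899 to 1391 FPKM in CrT-/y and 1256 to 1647 FPKM in CrT+/y animals. The astrocyte markers summed to 881 to 954 and 920 to 1107 FPKM, and the microglial markers to 143 to 152 and 151 to 159 FPKM. Of the other lists, 1 of 8 inhibitory neuron (*Gad1*), 1 of 7 fibroblast and meningeal (*Slc6a13*) and 1 of 2 tested olfactory bulb markers (*Cdhr1*) were called higher. The inhibitory neuron markers had no common direction, with 5 above 0 and 3 below (*Pvalb*, *Lhx6* and *Sst*) and a median of 0.08. All 7 fibroblast and meningeal markers (median 0.31) and the 2 olfactory bulb markers (median 1.10) lay above 0. The 8 striatal markers and 10 immediate early genes held no call. All 8 striatal markers lay above 0 (median 0.69), and they summed to 219 to 503 FPKM in CrT-/y and 120 to 462 FPKM in CrT+/y animals. Of the 10 immediate early genes, 9 lay below 0 (median -0.11). The part of these cell types in the ER results was not tested.

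Promoters of the members were searched for the ER stress response element (ERSE), which ATF6 and XBP1 bind together with the CCAAT-binding factor NF-Y. The RefSeq promoter table (GRCm38.p6, from 250 bases before to 50 bases after the start, 300 bases in all) holds 27025 genes and 36 of the members. *Hyou1*, *Hspa13*, *Manf*, *Atf6* and *Derl1* were not matched. An exact ERSE, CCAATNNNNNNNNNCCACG on either strand, was found in 10 of the 36 members (27.8%) and in 37 of all 27025 genes (0.137%). Among members called lower it was in 7 of 17 (41.2%), among members tested and not called in 2 of 18 (11.1%), and the tenth was *Derl3*. The elements of the 9 tested members are shown because they set the called and uncalled members side by side, and *Hsp90b1* has a pair of them. Each is written 5′ to 3′ in the direction of the motif with its fixed letters in capitals, the strand is that of the printed letters, and bases are counted from the RefSeq start.
*Hspa5* (chr2:34772025-34772043, plus strand, bases -65 to -47; called lower): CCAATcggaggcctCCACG
*Hsp90b1* (chr10:86705638-86705656, minus strand, bases -212 to -194; called lower): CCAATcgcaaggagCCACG
*Hsp90b1* (chr10:86705533-86705551, plus strand, bases -107 to -89; called lower): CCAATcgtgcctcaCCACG
*Dnajc3* (chr14:118937827-118937845, plus strand, bases -105 to -87; called lower): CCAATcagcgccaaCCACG
*Pdia6* (chr12:17266491-17266509, plus strand, bases -98 to -80; called lower): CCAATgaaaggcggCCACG
*Creld2* (chr15:88819520-88819538, minus strand, bases -126 to -108; called lower): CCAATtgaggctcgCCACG
*Calr* (chr8:84847075-84847093, plus strand, bases -162 to -144; called lower): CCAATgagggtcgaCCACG
*Canx* (chr11:50325800-50325818, minus strand, bases -145 to -127; called lower): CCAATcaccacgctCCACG
*Ero1lb* (chr13:12565682-12565700, minus strand, bases -201 to -183; not called): CCAATgaggcgggaCCACG
*Syvn1* (chr19:6046532-6046550, plus strand, bases -44 to -26; not called): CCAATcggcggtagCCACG

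The shorter ERSE-II, ATTGG and CCACG with any 1 base between them, was found in 2 of the 36 members (5.56%), both of them called lower, and in 0.0444% of all genes.
*Dnajb11* (chr16:22857852-22857862, plus strand, bases 7 to 17; called lower): ATTGGcCCACG
*Herpud1* (chr8:94386377-94386387, plus strand, bases -52 to -42; called lower): ATTGGgCCACG

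The UPR element TGACGTGG, which XBP1 binds, was in *Txndc5* and *Txndc11* (5.56% of members, 0.714% of all genes), and both of these were not called. The letters CCACG alone, which lie inside both ERSE forms, were in 76.5% of called and 83.3% of uncalled members and in 35.5% of all genes. The letters CCAAT alone, the first part of the ERSE, were in 88.2% of called and 66.7% of uncalled members and in 41.1% of all genes. Read over all tested genes with a promoter, an ERSE was in 16 of 10323 genes (0.155%), of which 9 were members and 7 were not. The 7 genes outside the member list were all not called (median log2 fold change -0.10), whereas 7 of the 9 members were called lower (median -0.41). The members were chosen as ER genes and the element is known from such genes, so its share among them was no independent result. They were also listed with earlier results of these data known, so the contrast in calls and medians with the 7 outside genes was none either. With 7.25% of all genes called lower, 0 calls among 7 genes is not informative. No match says only that these letters are not in this window.

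**Figure D2:**
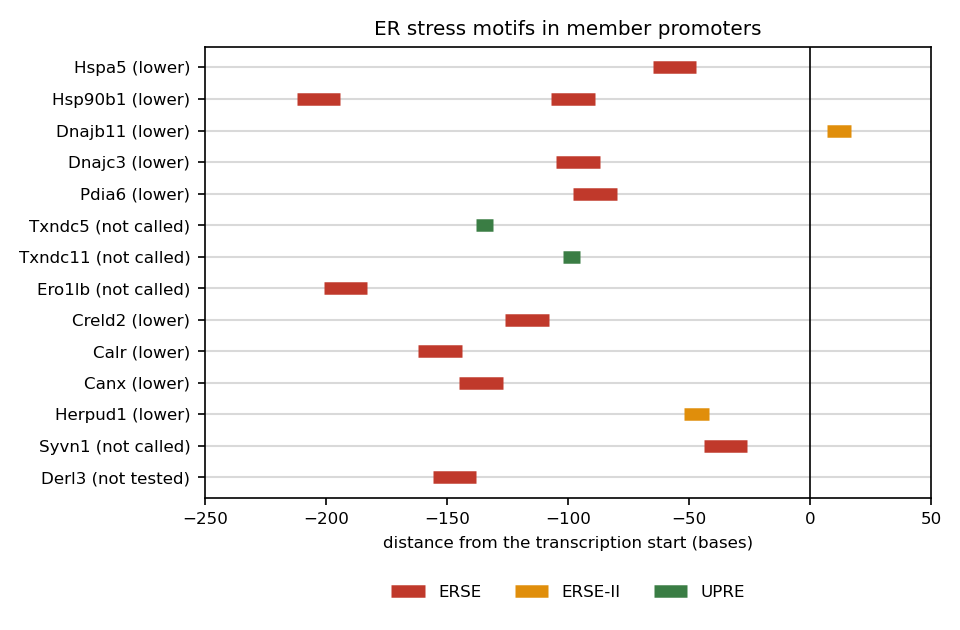
Positions of ERSE (red), ERSE-II (orange) and UPRE (green) letter matches in the member promoters that hold one, as distance from the RefSeq transcription start in bases (x axis, start at 0), with the limma call beside each gene name. All ERSE matches lie before the start, and the ERSE-II of *Dnajb11* lies just after it.

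The HSP70 and HSP90 branch showed the largest median difference of the 5 branches. BiP, GRP94, the HSP70-like nucleotide exchange factor HYOU1 and 4 of their partners fell, while 3 relatives were not called. Of the 10 genes, 7 were called lower and 0 higher, all 7 without overlap, with a branch median of -0.42. *Hspa5*, the master chaperone of the ER (GRCm38 chr2:34771970-34777547, plus strand), was at 64.8, 65.0, 72.0 and 66.5 FPKM in CrT-/y replicates 0 to 3 and at 98.1, 103.8 and 116.4 FPKM in CrT+/y replicates 1 to 3. The highest CrT-/y animal was well below the lowest CrT+/y animal, and CrT+/y replicate 3 was the highest. The CrT-/y mean was 67.1 ± 3.39 FPKM (SD, n = 4) and the CrT+/y mean 106.1 ± 9.39 FPKM (SD, n = 3), 63.2% of the wild-type level (log2 fold change -0.66, SE 0.070, limma adjusted p = 0.0060). Its 250 bases before the start, 5′ to 3′, with the fixed letters of the ERSE in capitals, are:
Hspa5 promoter (GRCm38.p6 chr2:34771840-34772089, plus strand): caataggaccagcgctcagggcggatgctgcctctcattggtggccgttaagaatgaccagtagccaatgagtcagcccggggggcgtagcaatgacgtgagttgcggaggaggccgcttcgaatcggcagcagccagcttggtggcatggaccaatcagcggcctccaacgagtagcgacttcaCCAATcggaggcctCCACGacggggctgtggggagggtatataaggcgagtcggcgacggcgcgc

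*Hsp90b1*, the HSP90 of the ER lumen (chr10:86690209-86705509, minus strand), was at 102.8, 88.3, 93.5 and 97.7 FPKM in CrT-/y and 148.6, 138.7 and 133.7 FPKM in CrT+/y animals. Here CrT+/y replicate 3 was the lowest wild type, and the groups again did not overlap (log2 fold change -0.55, SE 0.066, limma adjusted p = 0.010). *Hyou1*, which recharges BiP with ATP, was at 23.0 to 24.5 FPKM in CrT-/y and 30.2, 29.7 and 36.7 FPKM in CrT+/y animals (-0.42, SE 0.077, limma adjusted p = 0.033). The BiP co-chaperones *Dnajb11* and *Dnajc3* fell by similar amounts, while *Dnajb9* and *Dnajc10* of the same branch were not called. *Dnajb11* was at 22.1, 20.9, 21.2 and 20.2 FPKM against 30.3, 26.5 and 28.5 FPKM (-0.43, SE 0.063, limma adjusted p = 0.024). *Dnajc3*, also known as an inhibitor of eIF2α kinases, was at 13.7 to 15.3 FPKM against 16.9 to 21.4 FPKM (-0.41, SE 0.083, limma adjusted p = 0.040).

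*Sdf2l1*, a partner of ERdj3 (*Dnajb11*), was among the least abundant members called (chr16:17130138-17132383, minus strand). It was at 4.92, 4.92, 4.86 and 5.09 FPKM in CrT-/y and 6.84, 6.95 and 9.64 FPKM in CrT+/y animals (log2 fold change -0.63, SE 0.117, limma adjusted p = 0.034). The CrT-/y animals were close together, and CrT+/y replicate 3 stood above the other wild types. *Manf*, a secreted factor kept in the ER by BiP, was at 13.5 to 16.0 FPKM against 19.0 to 20.2 FPKM (-0.40, SE 0.067, limma adjusted p = 0.028). *Sdf2l1* fell by an amount like that of *Hspa5* with no ERSE letters in its window, which holds 3 CCACG and 4 CCAAT on either strand at other spacings. Its 250 bases before the start are shown for that contrast.
Sdf2l1 promoter (GRCm38.p6 chr16:17132384-17132633, minus strand): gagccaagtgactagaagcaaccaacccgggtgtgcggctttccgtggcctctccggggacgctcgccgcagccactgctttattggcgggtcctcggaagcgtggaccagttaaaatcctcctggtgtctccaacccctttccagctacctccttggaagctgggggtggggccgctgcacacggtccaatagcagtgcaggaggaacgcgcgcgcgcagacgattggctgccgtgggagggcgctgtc

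The 3 members of the branch that were not called were *Hspa13*, an HSP70-like protein of microsomes, *Dnajb9* (ERdj4), which keeps IRE1 off, and *Dnajc10* (ERdj5), a J protein with thioredoxin domains that reduces ERAD clients. *Dnajc10* was at 22.6 to 23.3 FPKM in CrT-/y and 22.0 to 23.0 FPKM in CrT+/y animals, with a log2 fold change of 0.03 (95% interval -0.08 to 0.14). *Hspa13* was at 13.4 to 15.3 and 14.1 to 15.7 FPKM, with a log2 fold change of -0.05 (95% interval -0.20 to 0.11) that turned above 0 under upper quartile scaling and the length correction. *Dnajb9* was at 27.8 to 30.6 and 29.0 to 34.3 FPKM (-0.14, 95% interval -0.29 to 0.02), the overlap coming from CrT+/y replicate 3. Without CrT-/y replicate 1, 3 genes of the branch were called lower, and with the other animals left out in turn 6 to 8.

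**Figure D3:**
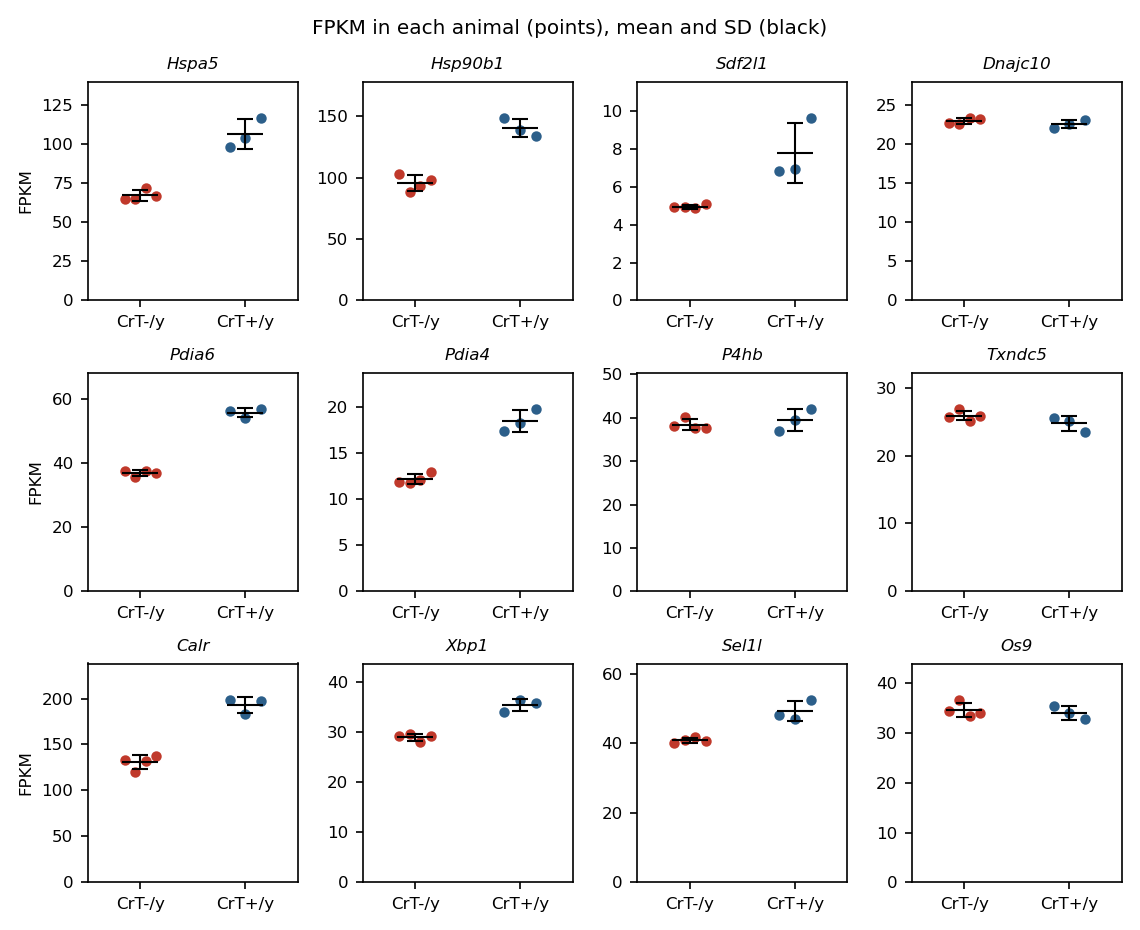
FPKM of 12 members (y axis, from 0) in each of the 4 CrT-/y (red) and 3 CrT+/y (blue) animals, with mean and SD in black. *Hspa5*, *Hsp90b1*, *Sdf2l1*, *Pdia6*, *Pdia4*, *Calr*, *Xbp1* and *Sel1l* do not overlap between genotypes, and *Dnajc10*, *P4hb*, *Txndc5* and *Os9* do.

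Among the disulfide isomerases and oxidases, the calls split by gene. The log2 fold change was below 0 in 10 of the 11 genes, and 5 of these passed the test. *Pdia3*, *Pdia4*, *Pdia6*, *Creld1* and *Creld2* fell, while *P4hb*, *Txndc5*, *Txndc11*, *Pdia5* and both ERO1 oxidases were not called. None was called higher, and the branch median was -0.27, which is the value of the uncalled *Pdia5*, the member with the largest SE. *Pdia6*, an isomerase that also acts on IRE1 (chr12:17266545-17284770, plus strand), was at 37.6, 35.7, 37.5 and 36.8 FPKM in CrT-/y and 56.2, 54.2 and 56.9 FPKM in CrT+/y animals. The animals of each genotype were close together and the groups far apart, and *Pdia6* had the smallest p of the members (36.9 ± 0.863 FPKM, SD, n = 4, against 55.8 ± 1.43 FPKM, SD, n = 3; log2 fold change -0.59, SE 0.049, limma adjusted p = 0.0024). *Pdia4* (ERp72, chr6:47796141-47813430, minus strand) was at 11.8, 11.8, 12.1 and 12.9 FPKM against 17.4, 18.3 and 19.8 FPKM (-0.60, SE 0.065, limma adjusted p = 0.0060). *Pdia3* (ERp57), which works with calnexin and calreticulin on glycoproteins, was at 64.0, 58.8, 62.9 and 63.2 FPKM against 80.2, 76.6 and 86.2 FPKM (-0.38, SE 0.059, limma adjusted p = 0.025).

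*P4hb*, the classical protein disulfide isomerase, was at 38.2, 40.1, 37.6 and 37.6 FPKM in CrT-/y and 36.9, 39.6 and 42.0 FPKM in CrT+/y animals. The genotypes overlapped fully, and its log2 fold change of -0.04 (95% interval -0.17 to 0.09) turned above 0 under quantile normalization, upper quartile scaling and the correction for transcript length. A ratio of a pair of genes within an animal does not depend on how animals are scaled. The log2 ratio of *Pdia6* to *P4hb* was -0.02, -0.17, -0.0016 and -0.03 in CrT-/y and 0.61, 0.45 and 0.44 in CrT+/y animals, a pair chosen after their values were seen and therefore not tested. The level of *Pdia6* was above that of *P4hb* in all 3 CrT+/y animals and just below it in the 4 CrT-/y animals. The promoter windows of this pair are shown beside each other; the ERSE of *Pdia6* is in capitals, and *P4hb* has no ERSE, ERSE-II or UPRE match.
Pdia6 promoter (GRCm38.p6 chr12:17266339-17266588, plus strand): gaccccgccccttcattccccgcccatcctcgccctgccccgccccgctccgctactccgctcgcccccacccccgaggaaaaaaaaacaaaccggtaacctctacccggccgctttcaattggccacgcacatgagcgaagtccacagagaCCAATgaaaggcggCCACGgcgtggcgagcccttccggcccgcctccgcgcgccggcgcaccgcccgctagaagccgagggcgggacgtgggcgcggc
P4hb promoter (GRCm38.p6 chr11:120573254-120573503, minus strand): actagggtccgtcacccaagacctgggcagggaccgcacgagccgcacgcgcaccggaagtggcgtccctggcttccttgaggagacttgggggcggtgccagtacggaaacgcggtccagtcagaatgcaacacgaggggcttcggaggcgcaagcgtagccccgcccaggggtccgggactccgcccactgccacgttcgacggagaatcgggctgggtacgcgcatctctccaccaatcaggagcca

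*Creld1* and *Creld2* encode ER proteins with EGF-like domains, for which disulfide isomerase activity has been described. *Creld1* was at 36.8, 33.7, 33.3 and 33.9 FPKM against 44.7, 39.9 and 44.1 FPKM (log2 fold change -0.31, SE 0.062, limma adjusted p = 0.038). *Creld2* was at 4.96 to 6.09 FPKM against 6.69 to 7.90 FPKM (-0.39, SE 0.096, limma adjusted p = 0.061). Both separated the genotypes. The call of *Creld2* was lost in 4 of the 13 alternatives on all animals. It was also lost without each of CrT-/y replicates 1, 2 and 3 and CrT+/y replicate 2. Of the uncalled isomerases, *Txndc5* was at 25.2 to 26.9 against 23.5 to 25.6 FPKM (0.07, 95% interval -0.06 to 0.19) and *Txndc11* at 8.86 to 9.61 against 8.03 to 11.2 FPKM (-0.02, 95% interval -0.26 to 0.21, above 0 under each scaling alternative). *Pdia5*, at 1.07 to 1.55 against 1.28 to 2.10 FPKM, had the largest SE of the members tested (-0.27, 95% interval -0.71 to 0.16). The oxidases that recharge the isomerases, listed under their older names *Ero1l* (ERO1α) and *Ero1lb* (ERO1β), were at 16.0 to 16.6 against 16.3 to 18.1 FPKM (-0.09) and 5.66 to 6.18 against 6.29 to 6.88 FPKM (-0.15, limma adjusted p = 0.206), and *Ero1lb* did not overlap. Leaving out CrT-/y replicate 1 left 2 genes of the branch called lower and leaving out CrT-/y replicate 2 left 3, while 4 to 6 were called without each of the other animals.

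In the lectin branch, the lumenal lectin fell much further than its membrane-bound relative. *Calr* (calreticulin, chr8:84841850-84846934, minus strand) was the most abundant member in CrT+/y cortex, at 133.3, 120.0, 132.5 and 137.3 FPKM in CrT-/y and 198.4, 183.2 and 197.3 FPKM in CrT+/y animals. Its highest CrT-/y animal was far below its lowest CrT+/y animal (log2 fold change -0.56, SE 0.063, limma adjusted p = 0.0066). *Canx* (calnexin) was at 114.2, 116.3, 112.8 and 118.4 FPKM against 130.5, 127.7 and 128.1 FPKM, a smaller difference with little spread (-0.16, SE 0.047, limma adjusted p = 0.091). The log2 ratio of *Calr* to *Canx* was 0.05 to 0.23 in CrT-/y and 0.52 to 0.62 in CrT+/y animals, a pair also chosen after its values were seen and not tested. *Uggt1*, which sends misfolded glycoproteins back to these lectins, was at 8.73, 8.86, 8.81 and 9.52 FPKM against 10.5, 10.6 and 10.5 FPKM (-0.23, SE 0.060, limma adjusted p = 0.067).

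The prolyl isomerases of the branch went opposite ways. *Fkbp2* was at 114.3, 102.7, 101.0 and 106.1 FPKM in CrT-/y and 145.0, 130.9 and 124.3 FPKM in CrT+/y animals (log2 fold change -0.33, SE 0.069, limma adjusted p = 0.042). *Ppib* (cyclophilin B, chr9:66060222-66066623, plus strand) was at 64.9, 65.3, 64.5 and 63.3 FPKM in CrT-/y and 52.2, 51.4 and 63.3 FPKM in CrT+/y animals and was not called (0.22, SE 0.074, limma adjusted p = 0.119). It separated the genotypes only by 63.3233 against 63.3047 FPKM, with CrT+/y replicate 3 at the level of the CrT-/y animals. *Ppib* was called higher under quantile normalization (limma adjusted p = 0.073), upper quartile scaling (limma adjusted p = 0.078) and array weights (limma adjusted p = 0.047) and without CrT+/y replicate 3 (limma adjusted p = 0.0056). Its exons share 825 bases with *Snx22* on the opposite strand, and the sources used here do not say whether reads were counted by strand. In all, 4 of the 5 genes of the branch fell, with a median of -0.23. *Canx* and *Uggt1* lost their calls under every scaling alternative, which left 2, and 1 or 2 genes were called when any animal but CrT+/y replicate 3 was left out.

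The sensors and transcription factors moved less than the chaperones. *Xbp1* and *Atf6* fell, and *Ern1*, *Eif2ak3* and *Atf6b* were not called, so that 2 of 5 were lower and 0 higher with a median of -0.12. *Xbp1*, whose mRNA is the substrate of IRE1 (chr11:5520659-5525893, plus strand), was at 29.2, 29.6, 28.0 and 29.3 FPKM in CrT-/y and 34.1, 36.5 and 35.8 FPKM in CrT+/y animals. The groups were tight and apart (log2 fold change -0.29, SE 0.051, limma adjusted p = 0.032). FPKM are summed over the gene, so spliced and unspliced *Xbp1* mRNA cannot be told apart here. *Atf6* was at 16.9, 18.0, 15.9 and 18.3 FPKM against 23.1, 19.2 and 20.3 FPKM (-0.27, SE 0.079, limma adjusted p = 0.089), and it was called in 4 of the 13 alternatives on all animals and in 2 of the 7 fits that left out an animal.

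Levels of the other sensors overlapped between genotypes. The IRE1 kinase gene *Ern1* was the weakest of them, at 2.07 to 2.43 FPKM in CrT-/y and 2.18 to 2.84 FPKM in CrT+/y animals (-0.12, 95% interval -0.40 to 0.15). The PERK gene *Eif2ak3* was at 7.74 to 8.82 and 7.78 to 8.07 FPKM (0.07, 95% interval -0.09 to 0.23). *Atf6b*, the relative of ATF6, was at 18.6 to 21.5 and 18.6 to 25.4 FPKM (-0.08, 95% interval -0.31 to 0.15), the high value being CrT+/y replicate 3. Without CrT-/y replicate 1, 0 genes of the branch were called. Over all 7 animals, 2 of the 5 had an unadjusted limma p under 0.05, against 3252 of the 12988 genes tested. At the adjusted threshold, 1 was called when CrT-/y replicate 0, 2 or 3 or CrT+/y replicate 1 was left out, and 2 when either of the other wild types was.

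ERAD was the branch with the smallest median difference, -0.11. *Sel1l* and *Herpud1*, which build the retrotranslocation complex around the ligase, fell, and the ligase, the mannosidases, the derlins and the lectin OS9 were not called, so that 2 of 9 tested were lower and 0 higher. *Sel1l* (chr12:91806043-91849157, minus strand) was at 40.3, 40.9, 41.9 and 40.7 FPKM in CrT-/y and 48.3, 47.0 and 52.5 FPKM in CrT+/y animals (log2 fold change -0.27, SE 0.054, limma adjusted p = 0.041). *Herpud1* (chr8:94386438-94395377, plus strand), with the ERSE-II shown above, was at 29.6, 29.2, 29.1 and 29.3 FPKM against 34.8, 32.4 and 35.2 FPKM (-0.22, SE 0.051, limma adjusted p = 0.055). Both were without overlap, and the CrT-/y animals differed little from one another.

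The ligase *Syvn1* (HRD1) was lower in every CrT-/y animal, at 19.4, 19.1, 19.2 and 19.1 FPKM against 24.6, 21.7 and 20.0 FPKM, but CrT+/y replicate 3 came close to them and it was not called (-0.20, limma adjusted p = 0.135). *Edem3* did not overlap either, at 11.0 to 11.96 against 12.2 to 13.5 FPKM (-0.17, limma adjusted p = 0.154). *Edem2* lay the other way, at 7.44 to 8.17 against 6.74 to 7.23 FPKM (0.15, limma adjusted p = 0.199), so the mannosidases of this family had no common direction. *Edem1* was at 5.81 to 6.41 against 5.70 to 6.32 FPKM (0.04, 95% interval -0.13 to 0.20). The derlins, membrane proteins of the exit channel, were at 23.9 to 25.6 against 22.7 to 25.2 FPKM for *Derl1* (0.02) and at 7.03 to 7.73 against 7.50 to 8.33 FPKM for *Derl2* (-0.11). *Os9*, which carries marked glycoproteins to SEL1L, was at 33.4 to 36.7 against 32.7 to 35.5 FPKM (0.02, 95% interval -0.10 to 0.15). The log2 ratio of *Sel1l* to *Os9* was 0.16 to 0.33 in CrT-/y and 0.44 to 0.68 in CrT+/y animals, and that of *Herpud1* to *Derl1* was 0.21 to 0.29 and 0.48 to 0.51, both pairs chosen after their values were seen. With 1 animal left out, the log2 fold change stayed at -0.30 to -0.22 for *Sel1l* and at -0.26 to -0.20 for *Herpud1*, while the number of ERAD calls changed. It was 0 without CrT-/y replicate 1, 2 or 3. There was 1 ERAD call when CrT-/y replicate 0 or CrT+/y replicate 1 was left out, and there were 4 when CrT+/y replicate 3 was. Over all 7 animals, 5 of 9 had an unadjusted limma p under 0.05, against 3252 of the 12988 genes tested.

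**Figure D4:**
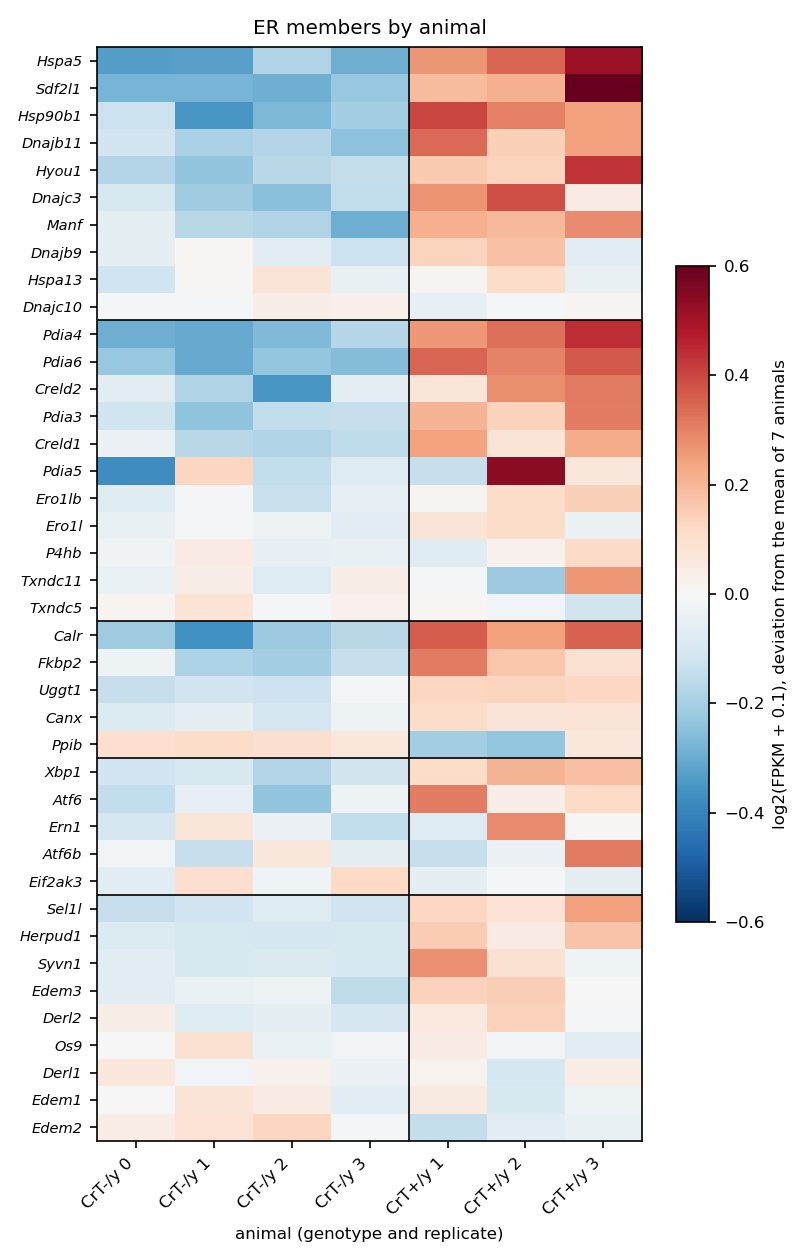
Deviation of each member from its mean over the 7 animals in log2(FPKM + 0.1) (colour, blue low and red high), with members as rows in branch blocks and animals as columns. The upper rows of the HSP70/HSP90, disulfide and lectin blocks are blue in all 4 CrT-/y and red in all 3 CrT+/y animals, and the ERAD block is pale.

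The branches were compared by a level per animal, the median over the branch of each gene's log2 deviation from its mean over the 7 animals. The HSP70 and HSP90 branch was at -0.12, -0.20, -0.18 and -0.18 in CrT-/y and 0.20, 0.18 and 0.25 in CrT+/y animals, the widest gap of the branches. The disulfide branch was at -0.15 to -0.01 against 0.07 to 0.22, and the lectin branch at -0.12 to -0.03 against 0.09 to 0.14, both without overlap. The sensor branch was at -0.10 to -0.04 against -0.06, 0.04 and 0.12, and the ERAD branch at -0.09 to -0.0006 against 0.06, 0.05 and -0.01, so both overlapped. Within each animal, the level of the HSP70 and HSP90 branch minus that of ERAD was -0.16 to -0.09 in CrT-/y and 0.13 to 0.26 in CrT+/y animals. A difference within an animal is not moved by a common scaling of that animal. The lectin branch minus ERAD was -0.08 to 0.06 in CrT-/y and 0.07 to 0.10 in CrT+/y animals, apart by a narrow margin (0.0585 against 0.0679). The disulfide branch minus ERAD was -0.10 to 0.03 and 0.01 to 0.23, so the genotypes overlapped. For the sensors the same difference to ERAD was -0.10 to 0.04 and -0.12 to 0.13, with the genotypes overlapping. These levels are descriptions without a test, since the genes were grouped with earlier results of these data known.

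**Figure D5:**
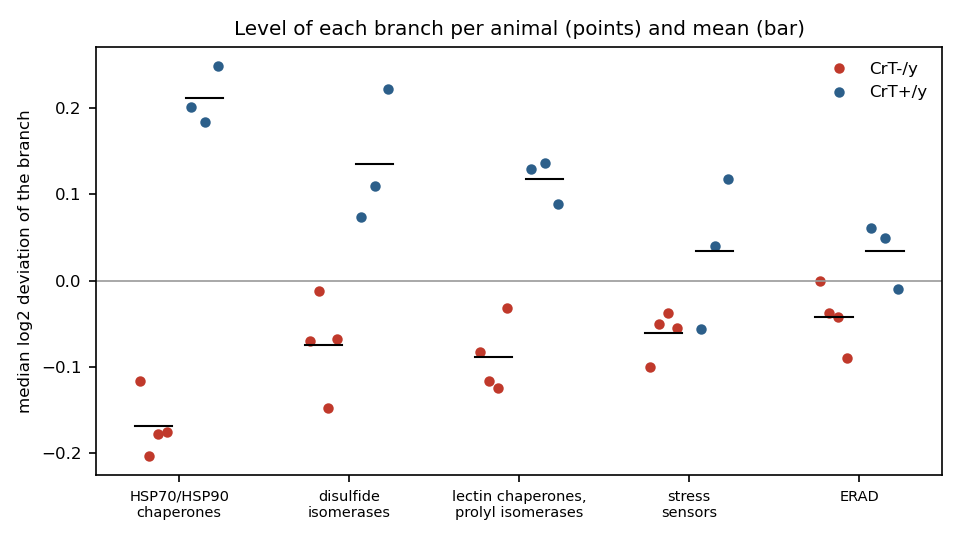
Level of each of the 5 branches (x axis) as the median log2 deviation over its tested genes (y axis), with a point for each CrT-/y (red) and CrT+/y (blue) animal and a bar at the genotype mean. The genotypes are apart in the first 3 branches and overlap in the sensor and ERAD branches.

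Animals differed in which member was extreme. Among the 20 called members, CrT+/y replicate 3 was the highest wild type in 10 and CrT+/y replicate 2 the lowest in 11, while CrT-/y replicate 2 was the lowest knockout in 9 and CrT-/y replicate 0 the highest in 9. *Hspa5*, *Hyou1*, *Sdf2l1* and *Pdia4* were led by CrT+/y replicate 3, and *Hsp90b1*, *Dnajb11*, *Calr* and *Fkbp2* by CrT+/y replicate 1. The count of 20 fell to 6 without CrT-/y replicate 1, to 11 without CrT-/y replicate 2 and to 13 without either CrT-/y replicate 3 or CrT+/y replicate 1, and it was 24 without CrT+/y replicate 3. The member median stayed at -0.22 to -0.19 in these fits. The share of all genes called in each of them is not given here, so the counts are no measure of the members alone. *Hspa5*, *Hsp90b1*, *Dnajb11*, *Pdia4*, *Pdia6* and *Calr* were called lower with each animal left out in turn and under all 13 other alternatives, and none of the 20 changed sign under any of them.

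Genes of the same pathway outside the member list moved little. Of 38 other ER chaperones and foldases tested, 3 fell (7.89%, near the 7.25% of all genes) and 1 rose, with a median log2 fold change of -0.02. *Cnpy4*, a canopy family co-chaperone, was at 3.11 to 3.67 against 4.79 to 5.41 FPKM (-0.57, limma adjusted p = 0.025), *Txndc12*, a small thioredoxin-like protein of the ER, fell by 0.25 (limma adjusted p = 0.056) and *Erp44*, which retains ERO1 in the early secretory pathway, by 0.33 (limma adjusted p = 0.094). *Fkbp10*, a collagen-directed prolyl isomerase, rose from 1.84 to 2.00 FPKM in CrT+/y to 2.70 to 3.04 FPKM in CrT-/y animals (0.54, limma adjusted p = 0.034). Of 31 other genes of glycan trimming and ERAD, 2 fell (6.45%, again near the share of all genes) and 0 rose (median -0.03). Those that fell were *Aup1*, a lipid droplet and ERAD factor (-0.36, limma adjusted p = 0.059), and *Jkamp*, which binds ERAD components (-0.27, limma adjusted p = 0.053).

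Of 26 other stress signalling genes tested, 3 fell (11.5%, all genes 7.25%) and 1 rose, with a median of -0.01. *Ddit3*, the CHOP factor downstream of PERK, was at 15.6, 14.8, 13.6 and 13.8 FPKM in CrT-/y and 17.8, 16.5 and 17.5 FPKM in CrT+/y animals (-0.26, SE 0.067, limma adjusted p = 0.067). The groups did not overlap. *Eif2s1*, the eIF2α subunit that PERK phosphorylates, fell by 0.21 (limma adjusted p = 0.080), and *Eif2ak1*, another eIF2α kinase, by 0.36 (limma adjusted p = 0.022). *Mbtps1*, the protease that cleaves ATF6 in the Golgi, rose by 0.19 (limma adjusted p = 0.091). *Atf4*, the main transcription factor of the PERK branch, was at 48.8 to 68.9 against 63.6 to 82.1 FPKM (-0.27, limma adjusted p = 0.273), and its target *Chac1* at 3.18 to 5.84 against 4.81 to 6.33 FPKM (-0.29, limma adjusted p = 0.390), so both overlapped. *Trib3*, another target, was under the filter, at 0.258 to 0.582 against 0.178 to 0.297 FPKM. Values for these mRNAs do not measure the activity of the sensors, which is set by cleavage, splicing and phosphorylation.

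Compared with neighbouring machinery, the member list was not alone in being lower. Of 24 heat shock genes, 14 fell (58.3%) and 0 rose, with a median of -0.26, near the 50% and -0.21 of the ER members. Most are cytosolic chaperones. The list also holds the mitochondrial *Hspd1* (called lower) and *Hspe1* (not called) and the heat shock factor *Hsf1*. Among the 14 that fell were the constitutive HSP70 *Hspa8* and *Hsf1* (-0.30, limma adjusted p = 0.058). Of 22 genes of the ER translocon and signal peptidase, which bring proteins into the ER, 4 fell (18.2%, all genes 7.25%) and 1 rose (median -0.11). Of 29 genes of ER to Golgi transport, which take folded proteins out, 3 fell (10.3%) and 1 rose (median -0.04). No test of these lists against one another was made.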

How the data were processed

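Cortical RNA of 7 male mice was sequenced by the authors (poly(A) mRNA libraries, Universal Plus mRNA-Seq kit, NovaSeq, paired ends) and aligned with the Tuxedo tools to the mm10 genome and transcriptome (the submitters' processing notes name Bowtie and Cuffnorm), where reads aligned uniquely to known exons or junctions were kept. Per gene and animal the authors deposited FPKM, divided by exon length and by library size. FPKM are not counts, so no count model was used, and the read totals that the study lists per library were not used here. Where reads are kept only if unique, genes with near-identical copies can be understated. The table has 24346 genes, 5246 of them at 0 in all animals, and the columns not used number 0.

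Genotypes and replicate numbers came from the labels. Nothing ties equal numbers to a litter. Values were put on log2(FPKM + 0.1), genes averaging 1 FPKM or more (12988) were fitted on genotype in limma 3.58.1 (R 4.3.3; trend of variance on expression; Benjamini-Hochberg; called at adjusted p under 0.1), and the fit was tested on simulated data. SE and 95% intervals come from the same fit. Percentages of genes called or without overlap over all tested genes are the background for each member count. The animals may share litters, so p-values measure the spread between these animals. Positions come from GENCODE M21 (GRCm38), where 23318 symbols matched as they stand, 666 by a synonym and 362 not, and promoter sequences from the RefSeq table of GRCm38.p6. Motifs were exact letter matches on both strands. Protein sequences were not used here. The calls of the excitatory neuron marker list are not reported here. Python 3.11.15, numpy 2.4.6, pandas 2.3.3 and matplotlib 3.10.9 were used.

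The 41 members, their branches, the pathway, neighbour and marker lists and the tests were chosen with earlier results of these data known. All members were named; of the other pathway genes those called were named, with *Atf4*, *Ddit3*, *Trib3* and *Chac1* whether called or not. The 13 alternatives changed the pseudocount (1 or 0.01), the filter (none, or averages of 0.1 or 5 FPKM), the scaling (upper quartile, median centring, quantile normalization), the fit (array weights, no variance trend) or added a transcript length correction, a replicate block, or both together. Each of the 7 animals was also left out in turn, and motifs were counted before the start only.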

Additional observations from a re-analysis of the deposited data

Results flagged for a closer look

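In 2 members the highest of the 4 CrT-/y animals stood apart from the other 3, by Dixon's 95% criterion on the gap to the nearest animal as a share of the range. *Uggt1* was at 9.5229 FPKM in CrT-/y replicate 3 and at 8.73 to 8.86 FPKM in the other CrT-/y animals. *Syvn1* was at 19.397 FPKM in CrT-/y replicate 0 and at 19.1151 to 19.1594 FPKM in the others, a gap of a small fraction of its level. In both genes all CrT-/y animals stayed below all CrT+/y animals. Such flags were looked for in 40 members, and chance flags about 1 in 20 groups.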

How the results depend on the processing

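The 20 calls in members were the same count, within 1.5 times, under each alternative on all 7 animals except the replicate block with the length correction, which left 11. With 1 animal left out, 6 to 24 members were called lower and 0 to 1 higher, and per branch 3 to 8 of the HSP70 and HSP90 genes, 2 to 6 disulfide, 1 to 4 lectin and prolyl, 0 to 2 sensor and 0 to 4 ERAD genes. The member median, -0.21, was -0.18 with a pseudocount of 1, -0.15 after quantile normalization, upper quartile scaling (-0.1457), length correction (-0.1546) and the block with length correction (-0.1499), -0.17 after median centring, and -0.22 to -0.19 with 1 animal left out. *Ppib* was the 1 member called higher after quantile normalization, upper quartile scaling and array weights. Lectin and prolyl calls were 2 and sensor calls 1 after quantile normalization, upper quartile scaling, median centring and the length correction. Sensor calls were also 1 with no filter, with a mean of at least 0.1 FPKM and without the variance trend. ERAD calls were 1 after upper quartile scaling and the length correction.

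Equal replicate numbers did not deviate together (Pearson's r over genes -0.08, 0.05 and -0.05 for numbers 1, 2 and 3), so the numbers were not read as pairs. With the replicate block, where CrT-/y replicate 0 has no partner, 14 members were called lower, 2 of them lectin or prolyl, 1 sensor and 0 ERAD, with a member median of -0.20. The block with the length correction gave 2, 0 and 0.

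No called member changed sign, and 6 uncalled ones did. *P4hb* was at 0.0158 (quantile normalization), 0.0228 (upper quartile), 0.0008 (length correction), 0.0059 (block with length correction) and from -0.0875 to 0.0063 with 1 animal left out. *Txndc11* was at 0.0081, 0.0387, 0.0208 and 0.0341 under the same, 0.0141 (median centring) and 0.0304 (array weights), and from -0.1377 to 0.1009 with 1 animal left out. *Hspa13* was at 0.0161 (upper quartile), 0.0059 (length correction) and 0.0401 (block with length correction). With 1 animal left out, *Atf6b* was at -0.1714 to 0.0517, *Os9* at -0.0079 to 0.0509 and *Derl1* at -0.0220 to 0.0534. The cause was not tested in any of these. ERSE counts of 7 called and 2 uncalled members held with the 250 bases before the start only.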
